A study of Mus musculus with 2 samples.

Results

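Genes of DNA replication and DNA repair were examined in the regenerating liver of miR-182-5pKO mice and wild-type (WT) mice. Members were the genes that the authors' annotation places in at least 1 of 5 KEGG pathways, namely DNA replication, base excision repair, mismatch repair, homologous recombination and the Fanconi anemia pathway. They numbered 118 of the 34745 genes listed, with 33 in DNA replication, 31 in base excision repair, 20 in mismatch repair, 26 in homologous recombination and 49 in the Fanconi anemia pathway. Because 28 genes belong to several pathways, the pathways are not independent of each other.

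Both groups were male mice, 8 to 10 weeks old, whose liver was taken at day 3 after 2/3 partial hepatectomy (PH), an operation in which 70% of the liver is removed. The labels give the genotypes as miRNA-182 KO and WT, and by the study's methods the KO mice are heterozygous, so that 1 allele of the miRNA gene remains. The transcript of that gene was not analysed here, so the labels were not checked on it. Each genotype had 1 library, the number of mice in it is not stated in the sources used here, and unoperated liver was not analysed here. A spread between mice could not be estimated, so no p-value is given, and every interval below covers counting error only.

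DNA replication starts when the ring-shaped MCM helicase unwinds DNA at an origin, after which the polymerases alpha, delta and epsilon copy the strands with the help of the sliding clamp PCNA. The repair pathways mend different lesions. Base excision repair removes damaged bases, mismatch repair removes copying errors, homologous recombination rebuilds broken strands from the sister copy, and the Fanconi anemia pathway opens crosslinks between the strands. After PH most hepatocytes leave rest and pass through S phase, around which many replication genes are known to be transcribed most.

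The count of each gene was scaled by TMM, a method that lines up the bulk of the genes between libraries, and the log2 fold change is given as KO over WT. A gene was kept when its counts in KO and WT summed to at least 10, which held for 13561 of all genes and 115 of the members. Rad51b and Sycp3 had no count in either library, and Poln had 0 counts in KO and 5 in WT. A difference of 2-fold was used as the limit for a call, with no test. The scaling mattered, because 13 genes of the mitochondrial genome took up 51.7% of the KO library and 31.0% of the WT library, of 13247497 and 13163348 counts in all. Scaled by total counts instead, the median of all genes was −0.60 rather than 0, and the log2 fold change of a typical member also dropped by 0.60. For this reason a list is described by its median minus the median of all genes, which the scaling hardly moves. Of the 45 members above 0 under TMM, 34 were below 0 under total counts and 11 stayed above.

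The members as a whole sat lower in the KO library. Of 115 members, 19 (16.5%) were at least 2-fold lower, against 9.94% of all genes, and 4 (3.48%) were at least 2-fold higher, against 9.46%. Their median was −0.25 relative to all genes. The counting interval lay wholly below 0 for 46 members (40.0%, against 26.2% of all genes) and wholly above 0 for 17 (14.8%, against 25.8%). DNA replication had a median of −0.65 relative to all genes, with 21 of 33 intervals below 0 and 2 above. For its 15 genes in no other of the pathways the median was −0.41, with 10 intervals below 0 and 0 above, and for the 18 shared with a repair pathway it was −0.68. For the 82 members outside DNA replication the median was −0.07, with 25 intervals below 0 and 15 above. The 2-fold calls did not set replication apart. At least 2-fold lower were 5 of its 33 genes (15.2%) and 14 of the 82 others (17.1%), and 1 (3.03%) and 3 (3.66%) were higher. These calls rest on the limit chosen. Under total counts 45 members were 2-fold lower and 0 higher, and with an assumed coefficient of variation of 0.2 between mice 3 stayed lower and 1 higher.

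**Figure D1:**
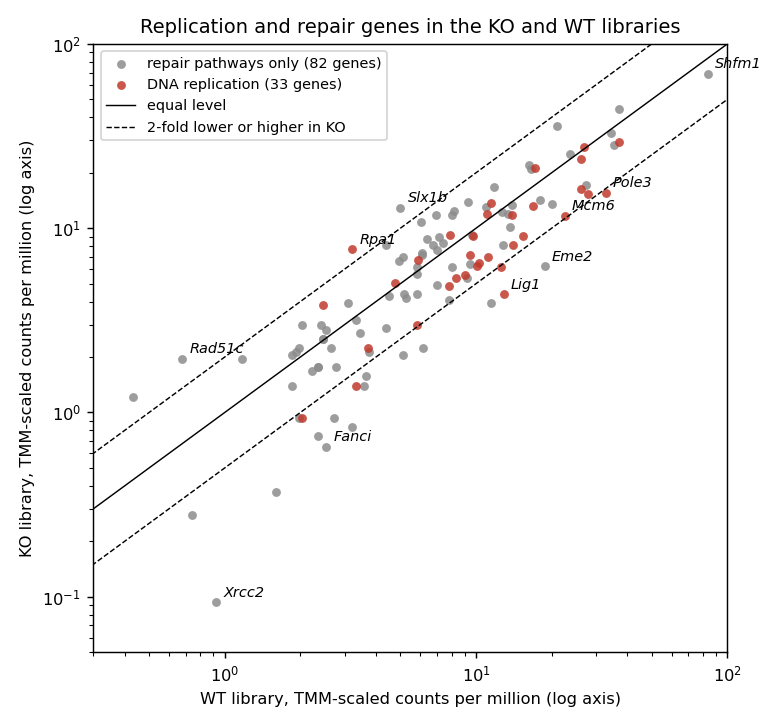
Level of each kept member in the WT library (x axis) and the KO library (y axis), in TMM-scaled CPM on log axes, with 1 point per gene. Most of the 33 replication genes lie between the line of equal level and the lower 2-fold line, and Lig1 and Pole3 lie below it, while Rpa1 lies above the upper 2-fold line.

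**Figure D2:**
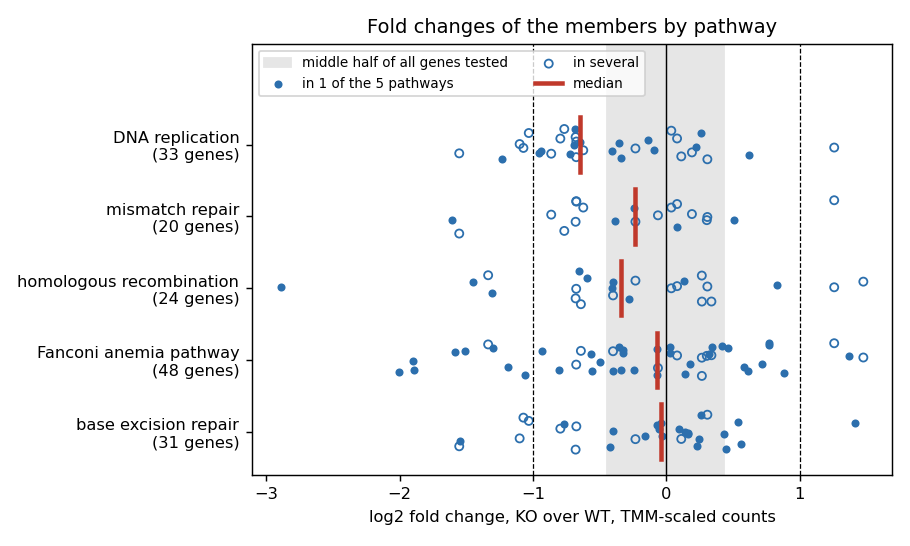
Log2 fold change, KO over WT, of each kept member by pathway, with the pathway's median as a red bar and the middle part of all genes, from −0.44 to 0.43, as a grey band. The DNA replication median of −0.65 is the lowest of the 5, and under total counts every point moves to the left by about the same step.

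The median count of a kept member was 67 in KO and 112 in WT, against 89 and 136 over all kept genes, and 6 members had fewer than 30 counts in both. Per length, in FPKM, 50 of the 115 were under 1 in the WT library and 13 were at 5 or more. The highest was Shfm1, a small partner of BRCA2, at 15.0 FPKM in KO and 27.7 in WT, followed by Stra13, which the file annotates as centromere protein X, at 11.6 and 22.1. FPKM were scaled by the authors to total counts, so that a KO value is low on this scale for most genes.

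Within DNA replication the lower members were spread over nearly every machine of the fork. All 6 subunits of the MCM helicase were below 0 and 4 had intervals wholly below 0, although none reached 2-fold. Mcm6 (ENSMUSG00000026355, chr1:128331590-128359664) had 126 KO and 365 WT counts, 1.92-fold lower (log2 −0.94, 95% interval −1.25 to −0.65). Mcm4 had 32 and 94 counts (log2 −0.95), Mcm2 had 67 and 164 (−0.70) and Mcm5 had 70 and 166 (−0.65). Mcm3, with 98 and 158 counts, and Mcm7, with 256 and 424, were close to equal at −0.10 and −0.14, and both intervals held 0. The intervals of Mcm6 and Mcm7 did not overlap, since that of Mcm7 ran from −0.37 to 0.09. Mcm7 shares 25.5% of its 51-base words with the gene Gm5487 and overlaps 2 genes on the chromosome, so reads could be divided between them.

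The E2F factors are known regulators of S phase genes. Words like their sites in promoters, TTTCCCGC, TTTGGCGC, TTTCGCGC and TTTGCCGC, were sought on both strands from 250 bases before to 50 after the start of each gene. The words can overlap each other. Of 91 members with a RefSeq promoter window, 20 (22.0%) held a word, against 4.62% of 10415 kept genes and 2.26% of all 32851 windows. In DNA replication it was 11 of 27 (40.7%), in mismatch repair 6 of 16, in homologous recombination 5 of 19, in base excision repair 6 of 27 and in the Fanconi anemia pathway 5 of 38. The MCM genes held it in 4 of 5 windows, and these are printed with Lig1, Pola1, Pole2 and Rfc3, which were all lower in KO. The print is thus not a full list. The replication genes Pold1 (log2 −0.23), Pold3 (0.31) and Pole4 (−0.79) also held a word. Each line gives up to 30 bases, 5′ to 3′ on the strand of the gene in GRCm38.p6, with the word in capitals.
Mcm3, chr1:20820275-20820304, minus strand: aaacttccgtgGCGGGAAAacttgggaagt
Mcm5, chr8:75109345-75109374, plus strand: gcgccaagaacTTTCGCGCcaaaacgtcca
Mcm6, chr1:128359734-128359763, minus strand: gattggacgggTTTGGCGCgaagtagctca
Mcm7, chr5:138171849-138171878, minus strand: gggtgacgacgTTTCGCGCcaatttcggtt
Lig1, chr7:13278841-13278870, plus strand: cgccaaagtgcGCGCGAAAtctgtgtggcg
Pola1, chrX:93632275-93632304, minus strand: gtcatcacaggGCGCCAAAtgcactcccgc
Pole2, chr12:69228162-69228191, minus strand: cgtcggcggtgGCGCCAAAtcgcgaacatg
Rfc3, chr5:151651190-151651219, minus strand: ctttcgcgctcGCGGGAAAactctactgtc
Over the members the median log2 fold change was −0.38 for the 19 kept genes with a word and −0.07 for the 69 without. Over all kept genes it was −0.04 with a word and 0.01 without. Of the 20 members with a word 11 were in DNA replication, so this split overlaps that pathway's own median. A word was held by 23.5% of the members with intervals below 0 and by 26.7% of those with intervals above 0. The intervals of 8 of the 19 and 26 of the 69 lay below 0. The word TTTGAA, known as the CHR element of genes transcribed later in the cycle, was in 7 of the 91 windows (7.69%), against 14.9% of kept genes.

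**Figure D3:**
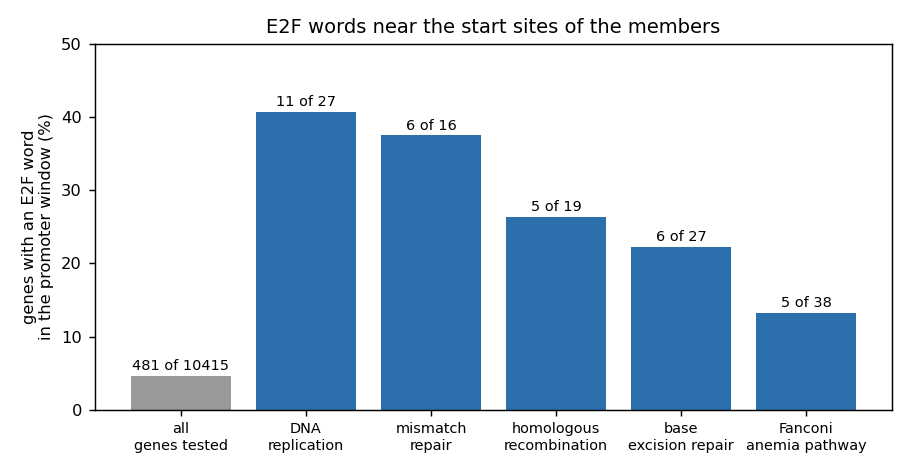
Share of genes, in percent, whose promoter window holds at least 1 E2F word, for all kept genes (grey) and for the members of each pathway (blue), with the number of genes above each bar. DNA replication stands highest at 11 of 27, and all kept genes lowest at 481 of 10415.

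The replicative polymerases did not move as units. In polymerase alpha-primase, which lays the RNA-DNA primers, the catalytic gene Pola1 had 15 counts in KO and 54 in WT, 2.35-fold lower (log2 −1.23, −2.19 to −0.41). Its partners Pola2 (99 and 128 counts, log2 0.22) and Prim2 (41 and 40, 0.62) had intervals that held 0, and Prim1, with 77 and 154 counts, was at −0.41. In polymerase epsilon, the main enzyme of the leading strand, the accessory subunits were the lower ones. Pole3 (ENSMUSG00000028394, chr4:62522649-62525068) had 168 and 533 counts, 2.10-fold lower (log2 −1.07, −1.33 to −0.82), and its level was 5.24 FPKM in KO and 16.7 in WT. Pole2 had 10 and 33 counts (log2 −1.10) and Pole4 had 87 and 228 (−0.79), whereas the catalytic gene Pole had 129 and 180 counts and a log2 value of 0.11 (−0.23 to 0.45). In polymerase delta, which copies the lagging strand, Pold2 was at −0.68 (52 and 126 counts), Pold1 at −0.23 (127 and 225) and Pold3 at 0.31 (229 and 279), and the last was below 0 under total counts.

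Of the clamp and its loader, 5 of 6 genes lay between −0.86 and −0.62. Pcna (ENSMUSG00000027342, chr2:132249162-132253314) had 176 KO and 424 WT counts, 1.60-fold lower (log2 −0.67, −0.94 to −0.42). It shares 31.5% of its 51-base words with the pseudogene Pcna-ps2, which had 50 and 166 counts, and the sum of both gave −0.79. Of the loader genes, Rfc2 had 165 and 453 counts (log2 −0.86), Rfc1 97 and 249 (−0.77), Rfc3 75 and 181 (−0.68) and Rfc5 58 and 135 (−0.62). Rfc4 stood apart from them, with 72 and 95 counts and a log2 fold change of 0.19 (−0.27 to 0.65). At the last steps of the lagging strand Lig1, Fen1 and the RNase H genes were lower, while the flap nuclease Dna2 (148 and 186 counts, log2 0.26) and Ssbp1 (298 and 438, 0.04), a single-strand binding protein of mitochondria, had intervals that held 0. Lig1 (ENSMUSG00000056394, chr7:13277283-13311433), the ligase that seals Okazaki fragments, had 47 and 209 counts, 2.93-fold lower (log2 −1.55, −2.05 to −1.10), which was the lowest value in DNA replication. Fen1, the nuclease that cuts flaps, had 66 and 204 counts (log2 −1.03, −1.46 to −0.63). Lig1 and Fen1 each overlap a gene on the opposite strand, and for Lig1 the sum with that gene was still at −1.12 while for Fen1 it was −0.38.

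Transcripts of the RNase H genes, whose products remove primers, were lower by less. Rnaseh1 was at −0.72, Rnaseh2b at −0.69, Rnaseh2a at −0.36 and Rnaseh2c at −0.34, each with an interval below 0. Rpa1 (ENSMUSG00000000751, chr11:75298166-75348324), the large subunit of the protein that coats single-stranded DNA, went the other way. It had 83 KO and 52 WT counts, 2.39-fold higher (log2 1.26, 0.75 to 1.80), and was the only replication gene at least 2-fold higher. Its partner Rpa3 had 54 and 77 counts and was at 0.08. At the 2-fold limit, Fen1 at −1.03 was the last replication gene to pass it, and Mcm4 at −0.95 and Mcm6 at −0.94 were the nearest that did not.

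**Figure D4:**
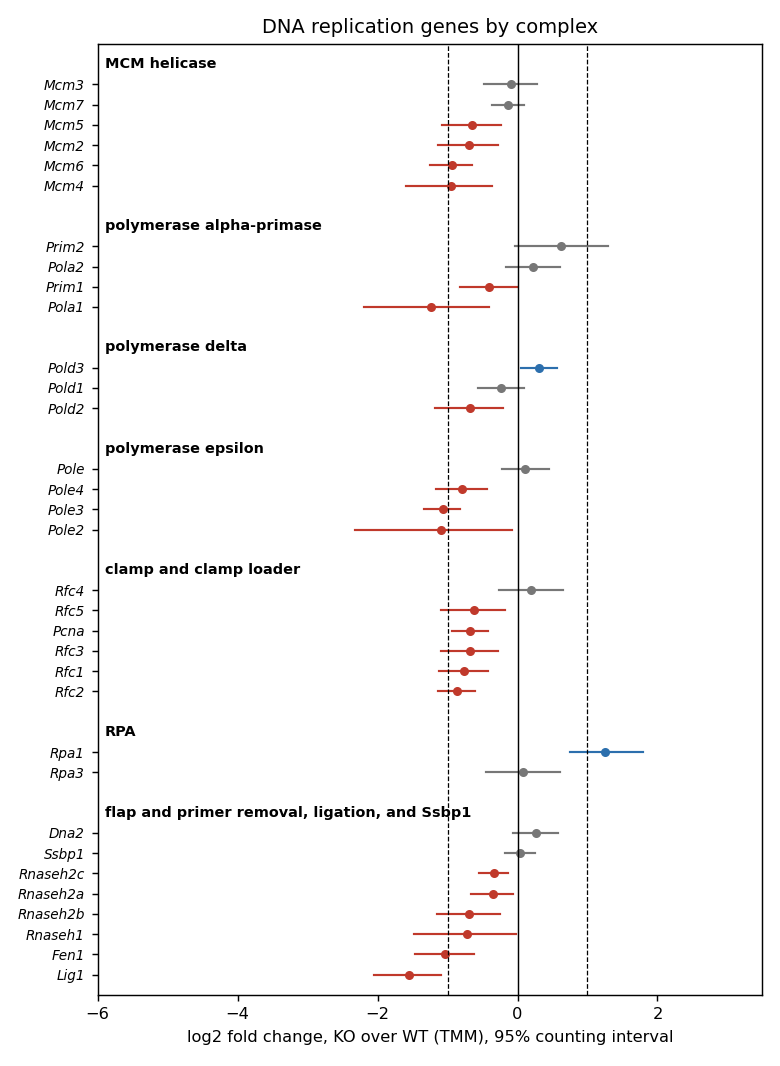
Log2 fold change, KO over WT by TMM, of the 33 replication genes with 95% counting intervals, grouped by complex. Intervals wholly below 0 are red, wholly above 0 blue and others grey, and dashed lines mark 2-fold. The red genes are 21 of 33, and Rpa1 and Pold3 are the blue ones, of which Pold3 lies below 0 by total counts.

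Genes that feed or flank the fork, none of them members, were read beside these. Of 12 kept genes of nucleotide supply, 7 had intervals below 0 (58.3%, against 26.2% of all genes) and none above, with a median of −0.38 relative to all genes. Ribonucleotide reductase, which makes deoxynucleotides, was lower in both S phase subunits, Rrm2 with 72 and 302 counts (log2 −1.47) and Rrm1 with 106 and 318 (−0.99). Of 6 genes of replication-coupled chromatin 5 had intervals below 0 (83.3%, against the same 26.2%). Among them were the histone chaperone Asf1b with 6 and 64 counts (−2.74) and Uhrf1, which guides maintenance methylation, with 57 and 193 (−1.16). Of 26 genes of origin licensing and firing 2 were 2-fold lower (7.69%) and 3 higher (11.5%), shares near those of all genes, and the median was −0.19. Gins2, of the active helicase, had 4 and 46 counts (−2.81) and the loader Cdt1 had 26 and 114 (−1.53), while Mcm10 had 417 and 253 (1.31), Cdc7 35 and 23 (1.18) and Orc3 236 and 174 (1.03). Among 13 proliferation genes 4 were 2-fold lower (30.8%, against 9.94% of all genes), including Cdk1 with 106 and 540 counts (−1.75). Foxm1, with 112 and 17 (3.27), was the 1 that was 2-fold higher (7.69%, against 9.46%). Mki67 was at −0.44 with 973 and 1989 counts.

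Base excision repair changed in appearance once its replication genes were set aside. All 31 members had a median of −0.04 relative to all genes, with 5 (16.1%) at least 2-fold lower and 1 (3.23%) higher. For the 21 genes in no other of the pathways the median was 0.14, with 3 intervals below 0 (14.3%, against 26.2% of all genes) and 4 above (19.0%, against 25.8%). The shared genes, such as Lig1, Fen1 and the polymerase epsilon subunits, held 4 of the 5 lower calls. The fifth was Apex2 (ENSMUSG00000025269, chrX:150519519-150589868), an endonuclease for sites that have lost a base, with 42 counts in KO and 186 in WT, 2.92-fold lower (log2 −1.55, −2.07 to −1.06). Apex2 overlaps Alas2, which had 535 and 347 counts, on the opposite strand, and the sum of both was at 0.71, opposite in direction to Apex2. Their reads cannot be told apart where the counting ignored strand.

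The glycosylases, which recognise and cut out damaged bases, were on the higher side under TMM, with 7 of 10 above 0, while 6 of those 7 would be below 0 under total counts. Mutyh, which acts opposite oxidised guanine, had only 13 and 7 counts (log2 1.41, 0.05 to 3.05) and was the only one at least 2-fold higher. Mpg, with 127 and 130 counts, was at 0.56, and Smug1 (32 and 33), Tdg (75 and 83), Neil1 (77 and 99), Ogg1 (23 and 31) and Mbd4 (22 and 30) had intervals that held 0. Ung, which removes uracil from newly made DNA, had the 1 interval below 0. It had 58 and 149 counts and a log2 fold change of −0.76 (−1.23 to −0.32). Neil3 was at −0.03 and Nthl1 at −0.40. Tdg shares 56.7% of its words with other genes, mainly the pseudogene Tdg-ps, which had 2 and 1 counts. Of the enzymes that act after them, Apex1 was at −0.43 (109 and 221 counts), Polb at −0.07 (143 and 226), Xrcc1 at −0.16 (129 and 217) and Parp1 at 0.09 (272 and 384). Lig3, the partner of Xrcc1, was at 0.44 with 236 and 263 counts, so that the replicative ligase Lig1 and Lig3 lay on opposite sides under TMM, and under total counts both were below 0.

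Mismatch repair had a median of −0.24, and 15 of its 20 members were genes shared with other pathways, mainly the clamp loader and polymerase delta. At least 2-fold lower were 2 of the 20 (10%, near the 9.94% of all genes), and 1 was higher (5%, against 9.46%). For the 5 genes in no other of the pathways 1 interval lay below 0 (20%, against 26.2% of all genes) and 1 above (20%, against 25.8%). Msh6 had 66 and 130 counts (log2 −0.38, −0.84 to 0.05) and Mlh3 66 and 94 (0.08). Pms2, shared with the Fanconi anemia pathway, had 32 and 39 (0.30). The intervals of all of these held 0. Msh3, which recognises larger loops, was at 0.51 (180 and 191 counts, 0.20 to 0.81) and below 0 under total counts. The exonuclease Exo1 had 8 and 38 counts, 3.05-fold lower (log2 −1.61, −2.97 to −0.53).

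Homologous recombination had a median of −0.34 over 24 kept members. At least 2-fold lower were 4 (16.7%, against 9.94% of all genes), and 2 were higher (8.33%, near the 9.46% of all genes). The median depended on which members entered, being −0.50 for the 10 in no other pathway and 0.036 for the 19 that overlap no other gene. The genes that help assemble the recombination filament pointed both ways. Xrcc2 had 1 KO and 15 WT counts, a log2 ratio of −2.89 with an interval from −8.71 to −0.61, Rad51d had 22 and 83 (−1.31) and Xrcc3 had 31 and 71 (−0.60). Rad51c, on the other side, had 21 and 11 counts, 2.78-fold higher (log2 1.48, 0.41 to 2.72). The translocase Rad54l had 24 and 100 counts (−1.45, −2.17 to −0.81), its relative Rad54b 19 and 38 (−0.40), and Rad52 116 and 98 (0.83, 0.44 to 1.24). Rad54l overlaps Lrrc41 on the opposite strand, and the sum of both was at −0.87. Brca2, a central mediator of recombination, had 42 and 50 counts (0.34) and its partner Palb2 21 and 19 (0.72), both with intervals that held 0, while Shfm1 was at −0.28 with 741 and 1355 counts. In end resection Nbn was at −0.66 (87 and 207 counts), Mre11a at −0.40 (47 and 94) and Rad50 at 0.13 (82 and 113), so that a single subunit of this complex had an interval below 0.

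The Fanconi anemia pathway had 9 of 48 members (18.8%, against 9.94% of all genes) at least 2-fold lower, 3 (6.25%, against 9.46%) higher and a median of −0.07. For the 36 members in no other of the pathways the median was −0.28, with 8 lower and 1 higher. Its central pair diverged. Fanci (ENSMUSG00000039187, chr7:79391929-79450264) had 7 and 41 counts, 3.73-fold lower (log2 −1.90, −3.36 to −0.79), while its partner Fancd2 had 30 and 41 counts and was at 0.14 (−0.59 to 0.86). Fanci overlaps Polg, which had 247 and 499 counts, on the opposite strand, and the sum of both was at −0.50. The enzyme that releases ubiquitin from the pair, Usp1, was at −0.55 (69 and 153 counts), its cofactor Wdr48 at −0.34 (153 and 292) and the nuclease Fan1 had 3 and 12 counts with an interval from −3.87 to 0.48. Usp1 shares 22.4% of its words with the gene Gm5841. The core complex, which attaches that ubiquitin, was divided evenly, with 6 of 12 genes below 0. Fancb had 10 and 44 counts (−1.51), Apitd1, annotated as centromere protein S, 10 and 32 (−1.06), Fanca 53 and 113 (−0.50) and Stra13 303 and 573 (−0.33), each with an interval below 0. Fancl, the ubiquitin ligase of the complex, was at 0.88 with 87 and 71 counts (0.42 to 1.36). Ube2t, Fancm, Fancf, Faap24, Fancg, Faap100 and Fancc lay between −0.32 and 0.42 with intervals that held 0.

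The enzymes that take apart joined DNA molecules lay on both sides. Of 12 kept genes 5 had intervals below 0 (41.7%, against 26.2% of all genes) and 4 above (33.3%, against 25.8%). Blm, the helicase that dissolves double junctions, had 15 and 58 counts (log2 −1.34) and Rmi2 4 and 26 (−2.00), whereas the other members of that complex, Rmi1 with 225 and 268 counts (0.34) and Top3a with 87 and 109 (0.27), were above 0 by TMM and below it by total counts. Rmi1 shares 37.6% of its words with the gene Gm20775, and the sum of both was at 0.38. Rmi1 also overlaps Hnrnpk, which had 553 and 1150 counts, on the opposite strand, and that sum was at −0.27. Ercc1, which cuts DNA together with Ercc4, had 9 and 52 counts, 3.71-fold lower (−1.89, −3.14 to −0.90), while Ercc4 had 94 and 103 (0.46, 0.04 to 0.88) and was below 0 by total counts. Eme2 had 67 and 304 counts (−1.58, −1.99 to −1.20) and its nuclease partner Mus81 79 and 99 (0.27). Eme2 overlaps Mapk8ip3 on the same strand and shares 24.4% of its words with it, and the sum of both genes was at 0.23. Slx1b, a junction nuclease, had 139 and 81 counts, 2.58-fold higher (1.36, 0.97 to 1.79), and its scaffold Slx4 had 127 and 112 (0.77). Slx1b overlaps Bola2, which had 472 and 468 counts, on the opposite strand, and the sum was at 0.75.

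Also in this pathway, Brca1 had 23 and 61 counts (log2 −0.80, −1.57 to −0.10) and the helicase Brip1 that binds its product 17 and 59 (−1.18, −2.07 to −0.40). Among the translesion polymerases, which copy past damage, Polk was at −0.93 (44 and 127 counts), while Rev1 was at 0.77 (385 and 341) and Poli at 0.61 (134 and 132). Rev3l and Polh had intervals that held 0. The checkpoint kinase Atr had 146 and 326 counts (−0.57, −0.86 to −0.28). Gm42641, annotated as ATR interacting protein, had 149 and 150 counts (0.58, below 0 by total counts) and overlaps Atrip, which had 6 and 31, and the sum of both was at 0.37.

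**Figure D5:**
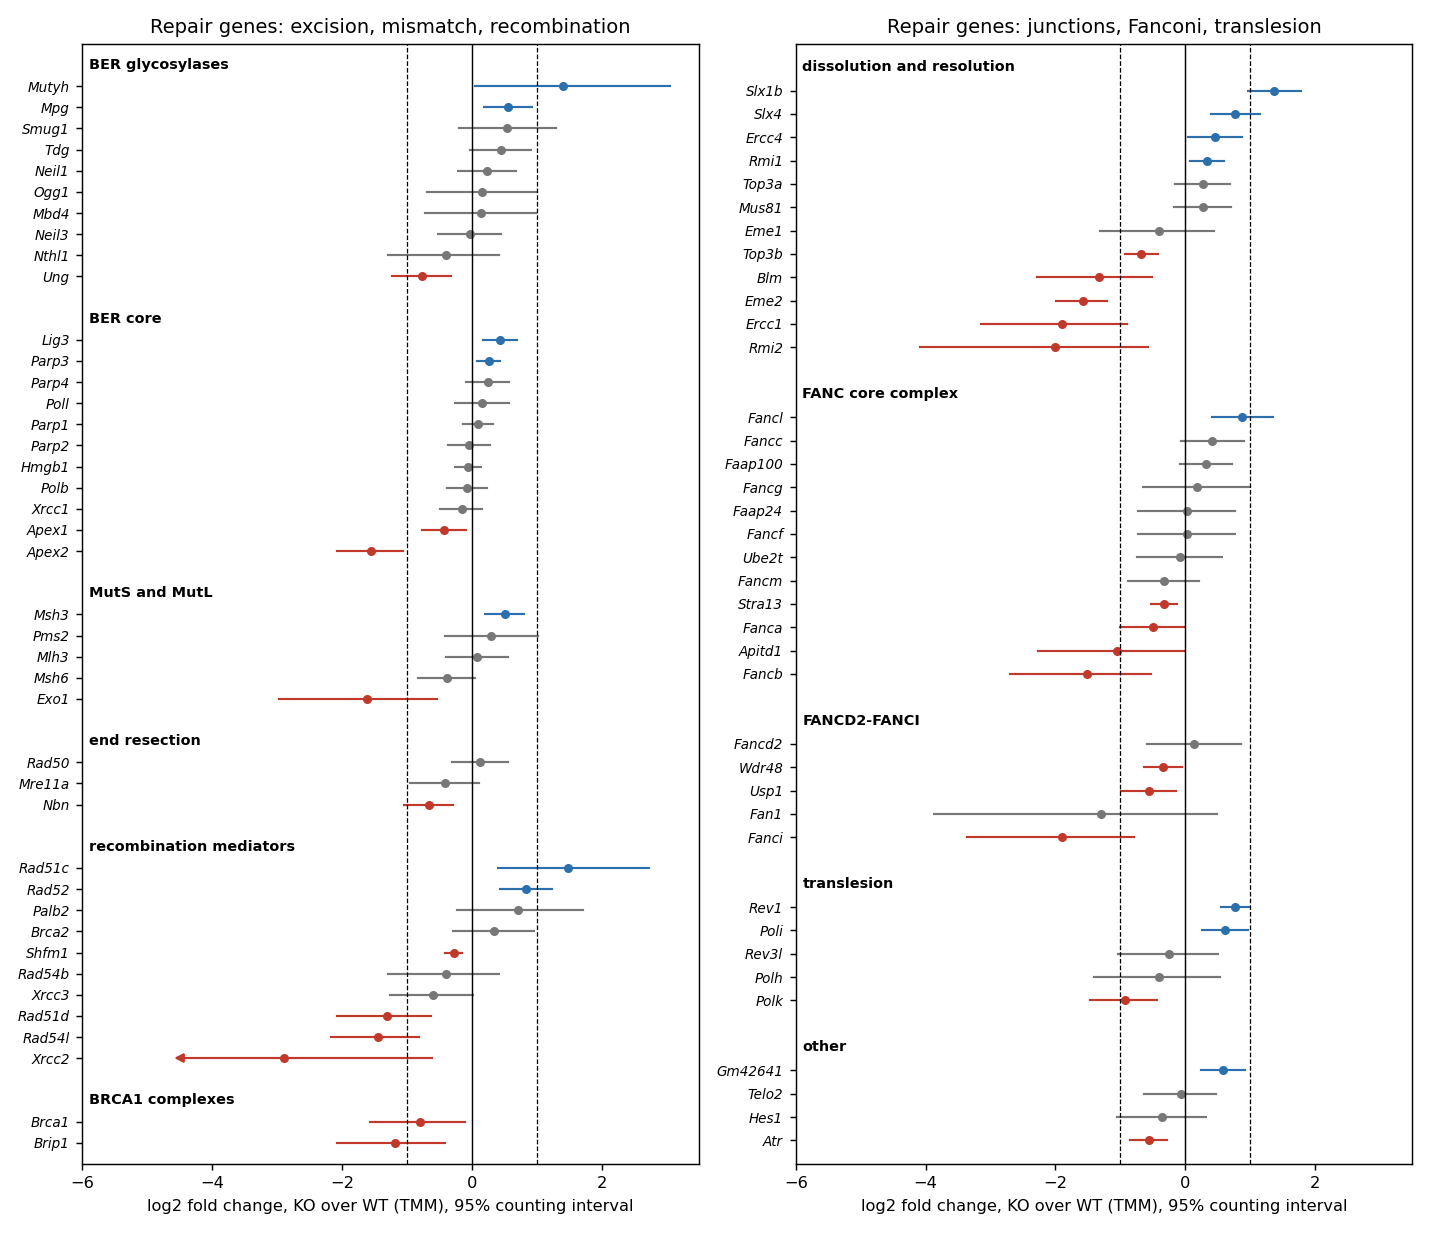
Log2 fold change, KO over WT by TMM, of 79 of the 82 kept repair genes outside DNA replication, with 95% counting intervals, grouped by role, in the colours used for the replication genes. Red (25 genes) and blue (15 genes) occur within the same groups, Fanci is red while its partner Fancd2 is grey, 7 of the blue genes lie below 0 by total counts, and the interval of Xrcc2 runs past the arrow to −8.71.

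Nucleotide excision repair and end-joining, outside the 5 pathways, were read for comparison. Of 23 genes of nucleotide excision repair that are not members, none was 2-fold lower or higher, against 9.94% and 9.46% of all genes. Their intervals lay below 0 for 4 (17.4%, against 26.2% of all genes) and above 0 for 4 (17.4%, against 25.8%), and the median was −0.04. Of 7 such genes of non-homologous end-joining 1 was 2-fold lower (14.3%, against 9.94% of all genes), Xrcc4 at −1.47, which was named after its value was seen. The whole nucleotide excision repair pathway, with 18 genes shared with the members, had 4 of 41 lower (9.76%, near the 9.94% of all genes) and 1 higher (2.44%).

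miR-182-5p is the miRNA of the targeted locus. It is printed to show the seed, bases 2 to 8 in capitals, whose match TTGCCAA was sought in the longest annotated 3′ UTR (GENCODE M21, GRCm38) of each gene.
miR-182-5p, chr6:30165962-30165986, minus strand, GRCm38.p6: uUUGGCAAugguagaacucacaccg
Rmi2, 8-base match: ttgagcctcagaaaatTTGCCAAA
Rad51c, 7-base match: tatatgtatctgtgtgtTTGCCAA
Exo1, 7-base match: ccagcacaattgaccccTTGCCAA
Lig3, 7-base match: gaagggtaggggcctctTTGCCAA
Mre11a, 7-base match: cagtgcctgtctggaacTTGCCAA
These are all 5 of 114 members with a match (4.39%), against 11.9% of 12536 kept genes, and the members' UTRs were shorter, with a median of 618 bases against 1130.5. Rmi2, with 3 matches in its 3264 bases, and Exo1 were 2-fold lower in the KO library, Rad51c was 2-fold higher, and Lig3 and Mre11a were within 2-fold. The genes with a match thus lay on both sides, and none of them belongs to DNA replication.

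Markers of the liver's cell types were read in the same libraries, since in whole liver fewer cells of a type and less RNA per cell cannot be told apart. The 7 hepatocyte markers summed to 50800 TMM-scaled CPM in KO and 50049 in WT. Alb (log2 −0.07) made up most of that sum, and single markers lay on both sides, from Cps1 at −0.63 to Pck1 at 0.49. Sums were lower in KO for 7 stellate cell markers (51.1 against 78.2), 7 Kupffer cell and macrophage markers (128.0 against 170.6) and 6 endothelial markers (64.9 against 80.1). They were higher in KO for 5 cholangiocyte markers (163.6 against 125.3), but Spp1 (1638 and 1875 counts, log2 0.40) made up most of that sum. Krt19 (26 and 7 counts) and Krt7 (15 and 6) were higher on few counts. Epcam (11 and 15) was at 0.14, and Sox9 (69 and 129) was at −0.31. The 6 erythroid markers summed to 76.4 and 64.9, but this came from Alas2 (535 and 347 counts, log2 1.22), while Hba-a1 (−0.56), Hbb-bt (−0.59) and Hbb-bs (−1.05) were lower and the median of the 4 kept markers was −0.58. Sums were near equal for 5 neutrophil markers (30.8 against 29.4, with Ly6g at 0 in both). The 7 lymphocyte markers summed to 2.05 and 1.91, with Ncr1 at 0 in both. The part of these differences, of the proliferation genes and of the mitochondrial share in the members' values was not tested.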

How the data were processed

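The authors deposited a table of read counts per gene, not normalized, for the KO and the WT library, and the FPKM that the authors computed from them, with gene symbols, coordinates and KEGG pathways. Libraries had been made from poly(A)-selected RNA and read on an Illumina HiSeq. The submitters' processing notes name HISAT2 2.0.4, StringTie and edgeR, without roles, and the human build hg38, although the identifiers are those of mouse genes. Whether the counting used strand is not given in the sources used here. Coordinates are those of the table, and 98 of the 118 members have the same ones in GENCODE M21 (GRCm38). Columns of samples left unused numbered 0.

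Counts were scaled by TMM in edgeR 4.0.16 (R 4.3.3), and log2 fold changes were taken from the CPM of edgeR, prior count 0.5, for genes whose counts summed to at least 10. Intervals are exact 95% binomial (Clopper-Pearson) intervals of the KO share of a gene's counts. The intervals cover counting error only. PCR duplicates were not removed by molecular identifiers, so the intervals may be too narrow even for that error. With 1 library per genotype no test between genotypes was made, and a call means a 2-fold difference. Only the scaling and the fold changes were tried on simulated counts. Those counts were drawn from the mean of both libraries, so their difference in mitochondrial share was not simulated. Genes named are members at least 2-fold different with at least 30 counts in the higher library, all genes of the main complexes, the 3 highest and 3 lowest of each pathway above that minimum, and genes of the other lists. Rmi2 and some others fall outside this rule and were named after their values were seen. The members and lists were chosen with earlier results of these data known. Alternatives were scaling by total counts, with or without mitochondrial genes, by the upper quartile and by the size factors of DESeq2 1.42.0, log2 of the authors' FPKM plus 0.1, a prior count of 5, minimums of 1 and 50 counts, an interval without 0, edgeR's exact test with an assumed coefficient of variation of 0.2 or 0.4 at an adjusted p threshold of 0.05, members in a single pathway, and members that overlap no other kept gene. Of the kept members 35 overlap another kept gene, 31 of them only on the opposite strand, and 9 share over 10% of their 51-base words with another gene. Promoter windows and miR-182-5p were taken from RefSeq (GRCm38.p6), with 91 of the 118 members matched by symbol. Python 3.11.15 with pandas 2.3.3, numpy 2.4.6, scipy 1.17.1 and matplotlib 3.10.9 was used. A few single genes are not reported here.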

Additional observations from a re-analysis of the deposited data

How the results depend on the processing

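No paired analysis was possible because only 1 library stands for each genotype, and for the same reason no replicate could be left out. With TMM, a minimum of 10 counts and a 2-fold limit, 1348 of all genes were lower and 1283 higher, and 19 members were lower and 4 higher. Scaling by total counts gave 3605 and 624 genes and 45 and 0 members. The authors' FPKM, which carry the same scaling, gave 2934 and 405 genes and 38 and 0 members. A minimum of 1 count gave 2752 and 2289 genes, and a minimum of 50 counts gave 766 and 642 genes and 12 and 2 members, as fewer genes were counted. With an assumed coefficient of variation of 0.2 there were 444 and 488 genes and 3 and 1 members, and with 0.4 there were 58 and 59 genes and 0 and 0 members, so that the calls depend on a spread between mice that these libraries do not measure. The median of DNA replication was −0.41 over its 15 genes of no other pathway, and that of the Fanconi anemia pathway −0.28 over its 36. The median of homologous recombination was −0.34, but −0.50 over the 10 members of no other pathway and 0.036 over the 19 that overlap no other gene, and the cause of these shifts was not tested. Over the 8 alternatives of scaling, unit, prior count and minimum, the DNA replication median lay between −0.65 and −0.62, that of mismatch repair between −0.24 and −0.22, that of homologous recombination between −0.34 and −0.27, that of base excision repair between −0.10 and −0.03 and that of the Fanconi anemia pathway between −0.07 and −0.02. The interval held 0 for 52 of the 115 kept members, against 48.0% of all genes.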
